A study of Mus musculus with 6 samples.

Results

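The genes that move calcium into the sarcoplasmic reticulum and hold it there were examined in cultured mouse satellite cells, the stem cells of skeletal muscle, after deletion of the transcription factor subunit NF-YA was induced in the animal and in undeleted controls. The set was chosen by name and comprised 10 genes out of the 35976 in the deposited tables: the SERCA pumps Atp2a1, Atp2a2 and Atp2a3, the pump regulators Sln and Pln, the calcium binders Casq1, Casq2, Srl and Hrc of the reticulum lumen, and the cytosolic buffer Pvalb. For Atp2a1 and Atp2a2 the separate transcripts were read as well.

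Each genotype, NF-YA cKO and the control NF-YA fl/fl, was represented by RNA-seq libraries of 3 cultures. All mice carried floxed Nfya alleles and all received tamoxifen (20 mg/ml), which activates Cre in NF-YA cKO mice, where it is driven by the Pax7 promoter and thus restricted to satellite cells and their progeny. NF-YA fl/fl mice have no Cre. The labels give an age of 5 to 7 weeks for both groups. The cells had been enriched by magnetic depletion of other cell types and kept in growth medium, so a culture could hold undifferentiated myoblasts, cells that had begun to differentiate, and residual cells of other types. The labels number the replicates without naming animals, so the spread between these libraries may be technical in part.

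A muscle contracts when calcium leaves the sarcoplasmic reticulum through ryanodine receptors and relaxes when SERCA pumps return it, at the cost of ATP. Sarcolipin and phospholamban are small membrane proteins that bind the pumps and lower their activity. In the lumen, calsequestrins store calcium close to the release channel, and sarcalumenin and the histidine-rich calcium-binding protein bind further calcium. Most of these genes are switched on when myoblasts leave the cell cycle and fuse, while SERCA2b, a product of Atp2a2, serves the endoplasmic reticulum of nearly every cell.

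Depth ranged from 26936230 to 41118984 expected counts. At that depth 3 counts are worth 0.0705 to 0.115 CPM (counts relative to library size, normalized for library composition). The entry the authors added for the deleted Nfya allele took 27.25%, 31.96% and 40.54% of the Nfya TPM (a level corrected for transcript length and scaled to the same total in every library) in the NF-YA cKO libraries and 0% in every NF-YA fl/fl library. The rest of the Nfya TPM in NF-YA cKO was assigned to entries without the deletion, and the gene total was not called (log2 fold change -0.06, FDR = 0.814). Xist ranged from 836 to 852 CPM in NF-YA cKO libraries and from 0.306 to 0.475 CPM in the controls. The Y-linked gene Ddx3y ranged from 0.0470 to 0.0957 CPM and from 80.9 to 88.6 CPM, although the methods of the study describe the tamoxifen-treated mice as male. The sex-linked genes therefore divide the libraries exactly as genotype does, and the contributions of sex and genotype to the differences given here cannot be told apart. A gene was called changed with an FDR under 0.01 in edgeR's quasi-likelihood test and a log2 fold change (NF-YA cKO over NF-YA fl/fl) beyond 1 in either direction.

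Transcripts of the fast-muscle pump, the calsequestrins and the other luminal binders were abundant in NF-YA fl/fl cultures and fell to a small remainder in NF-YA cKO, whereas the total for the pump gene Atp2a2 differed little. Of the 10 genes, 7 were called lower in NF-YA cKO (Atp2a1, Sln, Casq1, Casq2, Srl, Hrc and Pvalb) and 0 higher. Sln and Pvalb passed the filter on low counts through the NF-YA fl/fl libraries alone and so could only be lower in NF-YA cKO. Among all 17348 genes tested, 7.67% were called lower and 4.65% higher. In 8 of the 10 genes every NF-YA cKO library lay below every NF-YA fl/fl library, an order found for 26.2% of the genes tested. The median log2 fold change of the 10 genes was -5.48, against -0.02 over all tested genes. In these bulk cultures, fewer cells of a type and less RNA per cell cannot be told apart.

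**Figure D1:**
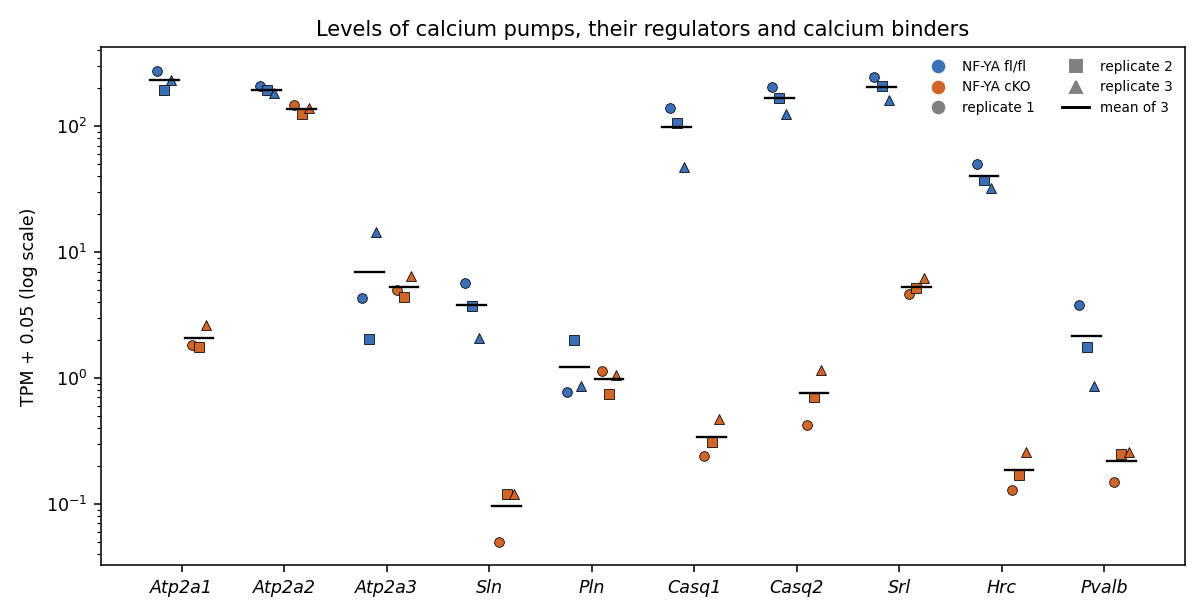
Level of each of the 10 genes as TPM + 0.05 on a log axis, with 1 point per library (its shape gives the replicate) and a bar at the mean of 3 libraries, NF-YA fl/fl on the left and NF-YA cKO on the right of each pair. The groups lie far apart for Atp2a1, Casq1, Casq2, Srl and Hrc and overlap for Atp2a3 and Pln.

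In NF-YA fl/fl, Atp2a1 had the highest mean level of the 10 genes, at 234.6 ± 40.1 TPM (SD, n = 3), followed by Srl (205 ± 43.0), Atp2a2 (195 ± 12.0) and Casq2 (166 ± 40.2). The values of these 4 genes overlapped between libraries, so their order is within the spread. Casq1 (98.2 ± 47.0 TPM) overlapped Casq2 and also Hrc (40.1 ± 9.24 TPM). Atp2a3 (6.89 ± 6.58), Sln (3.75 ± 1.79), Pvalb (2.09 ± 1.51) and Pln (1.16 ± 0.682) formed a lower group, separated from Hrc in every library, in which neighbours in the order overlapped. In NF-YA cKO the order was different, since Atp2a2 at 137 ± 12.1 TPM stood far above Srl (5.27 ± 0.795) and Atp2a3 (5.26 ± 1.07), which were alike within their spread, and Atp2a1 (2.02 ± 0.495) came next. The other 6 genes had means under 1 TPM in NF-YA cKO.

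Atp2a1 encodes SERCA1, the calcium pump of fast-twitch fibres. Its levels were 1.77, 1.70 and 2.59 TPM in the NF-YA cKO libraries and 275.02, 194.77 and 233.92 TPM in the NF-YA fl/fl libraries. The groups were widely separated. In CPM the means were 6.18 ± 1.36 and 695 ± 199, 112-fold apart, and Atp2a1 fell by 6.81 on the log2 scale (SE 0.32, FDR = 5.7e-05, edgeR's quasi-likelihood test).

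Atp2a2 encodes SERCA2, which is made as SERCA2a in slow-twitch and cardiac muscle and as SERCA2b in most other cells. The gene was at 148.35, 124.41 and 139.68 TPM in NF-YA cKO and at 207.51, 194.69 and 183.46 TPM in NF-YA fl/fl. All NF-YA cKO values were below all NF-YA fl/fl values, by a small margin. The log2 fold change was -0.39 (SE 0.14, FDR = 0.0584), and the gene was not called.

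Atp2a3 encodes SERCA3, known from blood cells, platelets and endothelium. It was at 4.98, 4.36 and 6.44 TPM in NF-YA cKO and at 4.29, 2.0 and 14.37 TPM in NF-YA fl/fl. The NF-YA fl/fl libraries thus spanned the whole NF-YA cKO range, with replicate 3 highest of all. The log2 fold change was -0.48 (SE 0.74, FDR = 0.635), and its sign turned without NF-YA fl/fl replicate 3 (0.90, FDR = 0.0874). That library had the lowest summed macrophage (5.19 CPM) and endothelial (4.21 CPM) markers of the 6 and the highest Myod1 (1146 CPM). Of the lymphocyte and platelet markers, Ms4a1 was at 0 in every library and Cd3e was at or near 0. The platelet markers Pf4 (1.46 to 5.26 CPM in NF-YA cKO, 0 to 0.0595 CPM in the controls, called higher) and Itga2b (0.670 to 1.22 CPM against 1.26 to 1.78 CPM, not called) were detected. Gp9 of the same list was too low to test (0.0241 to 0.128 CPM against 0.0679 to 0.268 CPM). The part of such cells in the Atp2a3 level was not tested.

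Summed over the 3 pump genes, the level was 155, 130 and 149 TPM in NF-YA cKO and 487, 391 and 432 TPM in NF-YA fl/fl, a 3.02-fold difference of the means. The composition of the sum differed as well. Atp2a1 held 1.14%, 1.3% and 1.74% of it in NF-YA cKO (1.40% ± 0.311, SD, n = 3) and 56.5%, 49.8% and 54.2% in NF-YA fl/fl (53.5% ± 3.42). The share of Atp2a2 was 95% ± 0.920 against 45.0% ± 4.14, and that of Atp2a3 3.63% ± 0.612 against 1.57% ± 1.53. The groups did not overlap for Atp2a1 and Atp2a2 (two-sided exact permutation test, p = 0.1 for each, the smallest p that 3 libraries against 3 allow). For Atp2a3 they overlapped (exact permutation p = 0.2).

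**Figure D2:**
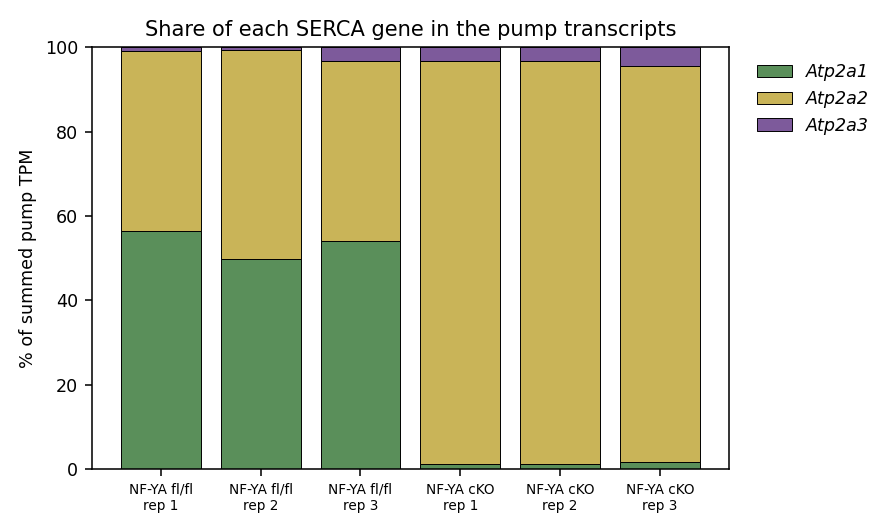
Share of the summed SERCA pump TPM held by Atp2a1, Atp2a2 and Atp2a3 in each library, in percent. Atp2a2 makes up 93.9% to 95.6% of the sum in the 3 NF-YA cKO libraries, and Atp2a1 and Atp2a2 divide it in the 3 NF-YA fl/fl libraries.

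The small difference in the Atp2a2 total combined differences of opposite sign between its transcripts. Both coding forms share the exons up to a fork near the end of the coding sequence, and the form-specific bases that follow decide whether the short tail of SERCA2a or the longer luminal tail of SERCA2b is translated. The coding ends are shown because the reads that distinguish the forms come from this region and beyond. They were read 5′ to 3′ from the GENCODE M21 transcripts (GRCm38, chromosome 5, minus strand), with the last 30 shared bases (chr5:122457303-122457332) in lower case and the form-specific coding bases, stop codon included, in capitals. The 14 bases of the SERCA2a end lie at chr5:122454291-122454304, and the 152 bases of the SERCA2b end at chr5:122457151-122457302.
SERCA2a, transcript of 4315 nt: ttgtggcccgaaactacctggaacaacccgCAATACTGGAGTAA
SERCA2b, transcript of 4502 nt: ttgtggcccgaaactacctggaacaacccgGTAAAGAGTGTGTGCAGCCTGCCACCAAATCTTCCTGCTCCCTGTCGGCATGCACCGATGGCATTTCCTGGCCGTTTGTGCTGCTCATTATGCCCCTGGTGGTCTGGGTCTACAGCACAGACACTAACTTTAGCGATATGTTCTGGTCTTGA

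The annotated coding sequences end 998 and 1044 residues long, respectively. The SERCA2b end begins directly after the shared bases on the chromosome, so that it reads on into what is intron for SERCA2a, while SERCA2a splices to a later exon.

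The muscle form, the transcript of 4315 nt, was at 6.27, 5.42 and 6.94 TPM in NF-YA cKO and at 115.22, 87.00 and 102.66 TPM in NF-YA fl/fl. All NF-YA cKO values lay far below those of NF-YA fl/fl. It fell by 3.95 on the log2 scale (SE 0.24, FDR = 0.0028, edgeR over all 45367 transcripts tested, of which 1.01% were called lower). The form found in most cells, the transcript of 4502 nt, was at 126.00, 102.61 and 112.69 TPM in NF-YA cKO and at 77.93, 91.20 and 62.77 TPM in NF-YA fl/fl. Here every NF-YA cKO library was the higher one. Its log2 fold change was 0.68 (SE 0.08, FDR = 0.0088), which is under the size required for a call. Over 8 alternatives it stayed between 0.66 and 0.71. The FDR of this transcript was 0.0140 to 0.0555 with 1 library left out and 0.0913 with the replicate block. A further transcript of 5725 nt, non-coding in RefSeq and annotated in GENCODE as subject to nonsense-mediated decay, holds the bases of both ends, and was at 17.5 ± 2.21 TPM and 16.3 ± 1.84 TPM (log2 fold change 0.19, FDR = 0.674).

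As a share of the Atp2a2 TPM, the SERCA2a transcript was at 4.23%, 4.36% and 4.97% in NF-YA cKO and at 55.5%, 44.7% and 56.0% in NF-YA fl/fl (4.52% ± 0.396 against 52.1% ± 6.39, exact permutation p = 0.1). The direction of the SERCA2a difference was the same in all alternatives. Its call, however, was lost without any of NF-YA cKO replicates 1, 2 and 3 or NF-YA fl/fl replicate 1 (FDR = 0.0175, 0.0249, 0.0171 and 0.0179, log2 fold changes between -4.01 and -3.86). RSEM divides the reads in shared exons between transcripts by estimation, so a transcript level is less direct than a gene level.

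**Figure D3:**
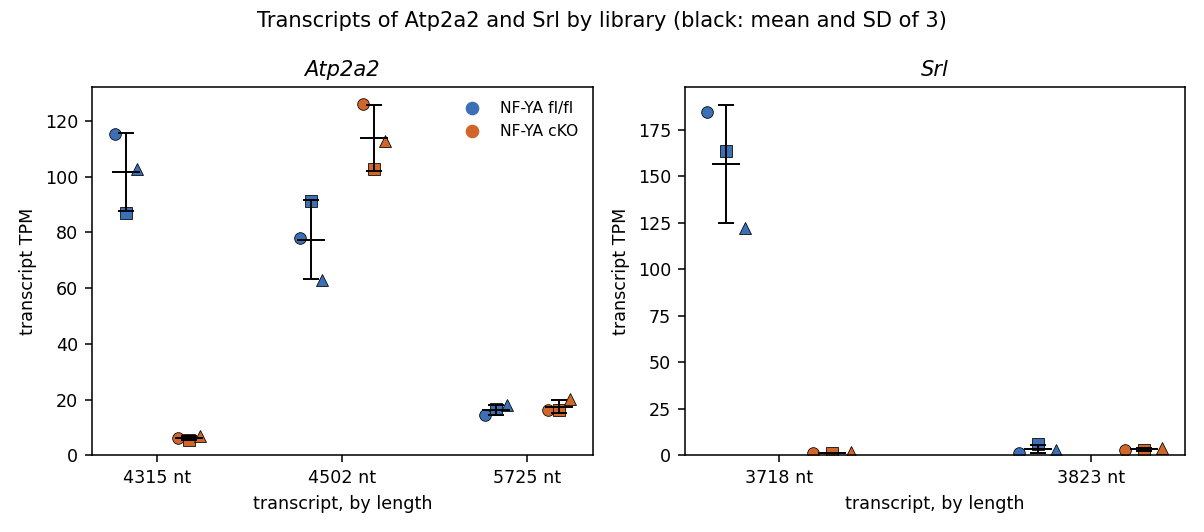
Level in TPM of the Atp2a2 transcripts (left) and of the Srl transcripts with the highest mean in either group (right), named by length, with 1 point per library and the mean and SD of 3 libraries in black. The SERCA2a transcript of 4315 nt is at 5.42 to 6.94 TPM in NF-YA cKO and 87.00 to 115.22 TPM in NF-YA fl/fl, while the SERCA2b transcript of 4502 nt is the higher in NF-YA cKO.

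Atp2a1 had 2 transcripts in the tables. That of 3428 nt was at 1.28, 1.42 and 1.59 TPM in NF-YA cKO and at 258.68, 180.25 and 210.14 TPM in NF-YA fl/fl. The 3440-nt transcript, which encodes a SERCA1 of 994 residues, was at 0.50, 0.28 and 1.0 TPM against 16.34, 14.52 and 23.78 TPM. Neither transcript overlapped between the groups. The shorter fell by 7.15 on the log2 scale (SE 0.32, FDR = 0.0019), a call that was lost without any of NF-YA cKO replicates 1, 2 and 3 or NF-YA fl/fl replicate 1 (FDR = 0.0104, 0.0189, 0.0133 and 0.0107) and with the replicate block (FDR = 0.0553). The longer had a log2 fold change of -4.91 (SE 0.59, FDR = 0.0105) and was not called by edgeR, but was called by DESeq2 (-4.94, FDR = 1.2e-17). The shorter made up 71.9%, 83.5% and 61.4% of the Atp2a1 TPM in NF-YA cKO and 94.1%, 92.5% and 89.8% in NF-YA fl/fl (exact permutation p = 0.1). Whether either of them is the adult or the neonatal form of SERCA1 was not determined here.

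Of the pump regulators, sarcolipin (Sln), the inhibitor typical of skeletal muscle, was nearly absent from NF-YA cKO. Its expected counts were 0, 1 and 1 in NF-YA cKO and 45, 31 and 23 in NF-YA fl/fl, which correspond to at most 0.07 TPM and to 5.59, 3.65 and 2.02 TPM. The NF-YA cKO counts were all under the 3 counts that a library at 0 would allow. The ratio of the summed counts was 64.0 (95% exact interval 17.2 to 536, which covers counting error only). The fitted log2 fold change was -5.77 (SE 0.65, FDR = 0.0012), and the call was lost without NF-YA cKO replicate 2 (-6.08, FDR = 0.0104).

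Phospholamban (Pln), the inhibitor best known from heart and slow muscle, was low in both groups. It was at 1.09, 0.70 and 1.0 TPM in NF-YA cKO and at 0.73, 1.95 and 0.81 TPM in NF-YA fl/fl, from 38 to 105 expected counts per library. These ranges overlapped, with NF-YA fl/fl replicate 2 the highest. The log2 fold change was -0.20 (SE 0.32, FDR = 0.649), and without NF-YA fl/fl replicate 2 it was 0.15 (FDR = 0.661). Sln made up 0%, 9.09% and 6.54% of the TPM of both regulators in NF-YA cKO and 88.4%, 65.2% and 71.4% in NF-YA fl/fl (exact permutation p = 0.1). Without the correction for length, as a share of expected counts, it made up 0%, 1.49% and 1.16% in NF-YA cKO and 54.2%, 22.8% and 28.8% in NF-YA fl/fl, so which regulator was the more abundant in NF-YA fl/fl depended on that correction. Exons of Pln overlap those of Cep85l and Gm47644 on the other strand, and whether the counting used strand is not given in the sources used here.

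Calsequestrin 1 (Casq1), the main luminal calcium store of fast muscle, was at 0.19, 0.26 and 0.42 TPM in NF-YA cKO and at 140.53, 106.42 and 47.53 TPM in NF-YA fl/fl. The groups did not overlap, although the NF-YA fl/fl libraries differed among themselves by a wide margin. The CPM means were 0.468 ± 0.186 and 145 ± 64.2, 309-fold apart, and Casq1 fell by 8.22 on the log2 scale (SE 0.48, FDR = 0.00011).

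Calsequestrin 2 (Casq2), the form of cardiac and slow muscle, was at 0.37, 0.66 and 1.10 TPM in NF-YA cKO and at 204.78, 168.97 and 124.44 TPM in NF-YA fl/fl. Again no library of one group reached the range of the other. Casq2 fell by 7.75 (SE 0.42, FDR = 8.7e-05), with CPM means 220-fold apart. Casq1 held 29.9% ± 3.47 of the TPM of both calsequestrins in NF-YA cKO and 35.7% ± 7.02 in NF-YA fl/fl (exact permutation p = 0.3), so that the balance between the calsequestrins was not distinguishable at this spread. Exons of Casq1 overlap Gm17224 on the other strand, those of Atp2a1 overlap Rabep2 and those of Atp2a2 overlap Gm43361.

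Sarcalumenin (Srl), a luminal glycoprotein that binds calcium and is associated with SERCA, was at 4.58, 5.09 and 6.14 TPM in NF-YA cKO and at 246.58, 209.10 and 160.81 TPM in NF-YA fl/fl. The remainder in NF-YA cKO was the highest of the luminal binders. Srl fell by 5.19 (SE 0.22, FDR = 5.1e-05), with CPM means of 18.5 ± 3.14 and 678 ± 133, 36.6-fold apart.

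The histidine-rich calcium-binding protein (Hrc), which links luminal calcium to triadin at the release site, was at 0.08, 0.12 and 0.21 TPM in NF-YA cKO and at 50.38, 37.32 and 32.52 TPM in NF-YA fl/fl. Between the highest NF-YA cKO library and the lowest NF-YA fl/fl library lay a wide gap. Hrc fell by 8.06 (SE 0.34, FDR = 5.1e-05), with CPM means 278-fold apart.

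Parvalbumin (Pvalb), a cytosolic calcium buffer of fast-twitch fibres, was scarce throughout. Its expected counts were 2, 6 and 6 in NF-YA cKO and 64, 30 and 19 in NF-YA fl/fl, and its levels 0.10, 0.20 and 0.21 TPM and 3.75, 1.72 and 0.81 TPM. The groups were separate but the gap was narrow. The ratio of the summed counts was 10.4 (95% exact interval 5.97 to 19.7). The log2 fold change was -3.42 (SE 0.65, FDR = 0.0073), and the call was lost without NF-YA cKO replicate 1, 2 or 3 (FDR = 0.0311, 0.0336 and 0.0302) or NF-YA fl/fl replicate 1 or 2 (FDR = 0.0116 and 0.0109), with values between -3.65 and -2.66.

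**Figure D4:**
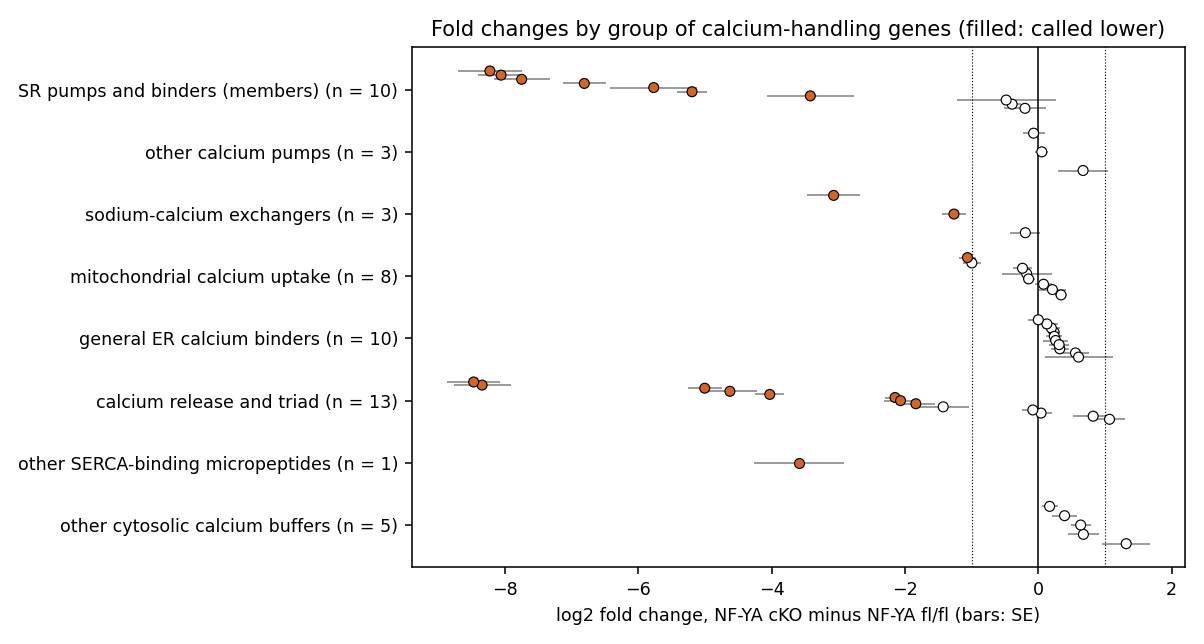
Log2 fold change (NF-YA cKO over NF-YA fl/fl) with its standard error for each tested gene, with the 10 genes in the top row, the other lists of calcium-handling genes below it, filled points for genes called lower and dotted lines at -1 and 1. In the top row Casq1 and Hrc lie at -8.22 and -8.06, whereas Atp2a2, Atp2a3 and Pln lie between -0.48 and -0.20.

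NF-Y is known to bind CCAAT boxes, and genes of muscle differentiation are known targets of MyoD and myogenin at E boxes and of MEF2 factors. The RefSeq promoter table (GRCm38.p6) held 7 of the 10 genes, and the 250 bases upstream of each start were searched on both strands for the letters CCAAT, for the E box CANNTG and for the MEF2 motif. These 7 genes had 8 promoters, since Pvalb has a pair. A CCAAT was found in 3 of the 8 (Atp2a1, Pln and Hrc) and in 33.85% of all 32851 promoters. An E box was found in 6 of 8 and in 66.22% of all, and a MEF2 motif in 2 of 8 (Casq2 and 1 of Pvalb) and in 2.92% of all. The 120 bases before the start are printed for the pump and the luminal binders that were called lower and had a promoter in the table, and for Pln, which was not called, with these motifs in capitals.
Atp2a1, chr7:126463074-126463193, minus strand: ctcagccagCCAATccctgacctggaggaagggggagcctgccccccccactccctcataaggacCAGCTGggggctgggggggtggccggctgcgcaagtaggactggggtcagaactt
Casq1, chr1:172219896-172220015, minus strand: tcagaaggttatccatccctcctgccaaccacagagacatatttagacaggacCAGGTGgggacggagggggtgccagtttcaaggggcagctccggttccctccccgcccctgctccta
Casq2, chr3:102086295-102086414, plus strand: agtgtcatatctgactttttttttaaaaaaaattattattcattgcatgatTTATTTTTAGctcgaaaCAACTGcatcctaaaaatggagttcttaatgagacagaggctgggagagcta
Hrc, chr7:45335149-45335268, plus strand: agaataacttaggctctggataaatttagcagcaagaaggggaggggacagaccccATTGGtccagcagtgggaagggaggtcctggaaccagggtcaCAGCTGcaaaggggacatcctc
Pln, chr10:53337566-53337685, plus strand: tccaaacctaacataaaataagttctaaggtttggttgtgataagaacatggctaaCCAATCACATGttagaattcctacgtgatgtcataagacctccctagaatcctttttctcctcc

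In Casq1 the capitals are an E box alone, and in Casq2 a MEF2 motif followed by an E box. Atp2a1 and Pln hold CCAAT on the printed strand, Hrc holds it on the other strand (ATTGG), and in Pln the E box follows it without a gap. Such matches are descriptions of the letters in these windows, and no binding was measured.

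The remainder in NF-YA cKO varied between libraries in the same order for 5 of the 7 genes called lower. Atp2a1, Casq1, Casq2, Srl and Hrc were each lowest in NF-YA cKO replicate 1 and highest in replicate 3 by CPM. The order was not particular to them. Atp2a3, which was not called, had it too (19.3, 19.8 and 25.8 CPM). Of the satellite cell markers, Pax7 had it (145, 165 and 201 CPM) and Vcam1 did not (135, 91.1 and 90.4 CPM). The share of all tested genes with this order was not computed. The summed CPM of 8 markers of differentiated muscle (Myog, Mymk, Mymx, Myh3, Ckm, Acta1, Ttn and Tnnt3) had the same order, at 616, 1050 and 1388 CPM, against 50216, 41915 and 44839 CPM in NF-YA fl/fl. All 8 markers were called lower, with a median log2 fold change of -6.04. The contribution of the number of differentiated cells to the falls of the calcium genes was not tested.

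The levels were also expressed per 1000 CPM of those 8 markers, and of 7 without Ttn, both chosen after the values were seen. On the first of these scales the luminal binders differed from one another. Casq1 was at 0.459 ± 0.0197 in NF-YA cKO and 3.12 ± 1.16 in NF-YA fl/fl. Casq2 was at 1.48 ± 0.227 against 7.50 ± 0.920, and Hrc at 0.280 ± 0.0233 against 1.76 ± 0.277. For these 3 genes every NF-YA cKO library was below every NF-YA fl/fl library (exact permutation p = 0.1 each), 6.81-, 5.05- and 6.27-fold by the means.

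Ttn alone made up 81.1% to 93.4% of the marker sum, and without it the ratios were 2.62-, 1.95- and 2.41-fold, in the same direction and again without overlap. Atp2a1 was 2.35-fold lower relative to all 8 markers and overlapped between the groups once Ttn was left out. Srl overlapped relative to all 8 markers (19.3 ± 4.64 against 14.7 ± 1.5) and was 3.47-fold higher in NF-YA cKO relative to the 7 others. The directions for Casq1, Casq2 and Hrc therefore held under both sums. The mean of Atp2a1 was lower in NF-YA cKO under the first sum and, with overlap, 1.13-fold higher without Ttn. The mean of Srl was higher in NF-YA cKO under both sums, but with overlap under the first. The markers fell unequally, with log2 fold changes from -8.09 (Myh3) to -5.21 (Tnnt3). Casq2 (-7.75) fell less than Myh3, and Hrc (-8.06) and Casq1 (-8.22) fell about as much as Myh3. The directions thus belong to these sums and do not hold against every marker.

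**Figure D5:**
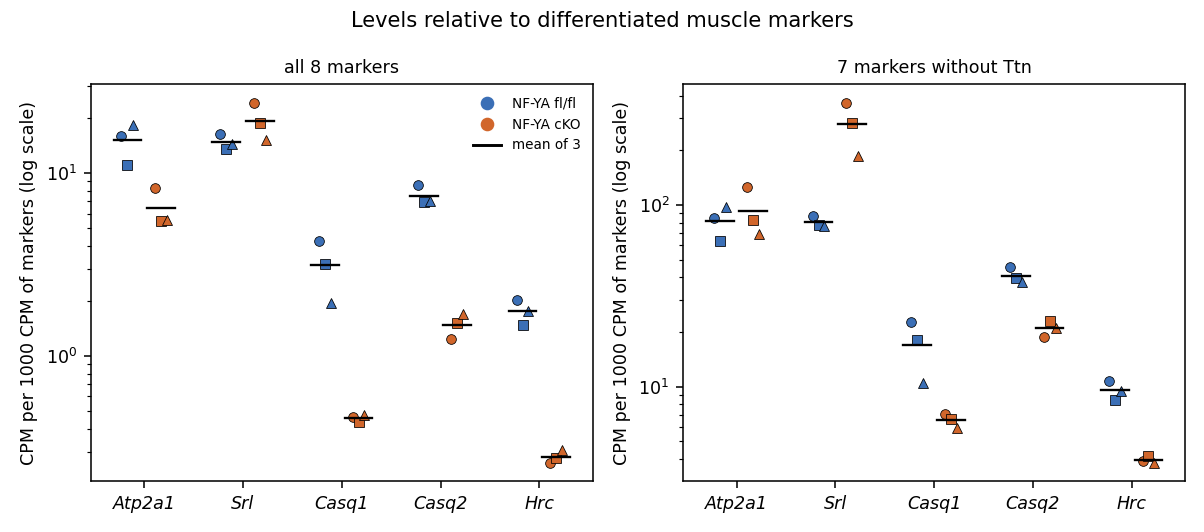
Level of 5 genes in CPM per 1000 CPM of summed differentiated-muscle markers on a log axis, relative to all 8 markers (left) and to the 7 without Ttn (right), with 1 point per library and a bar at the mean of 3. Casq1, Casq2 and Hrc lie lower in NF-YA cKO in both panels, and Srl overlaps on the left and lies higher in NF-YA cKO on the right.

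The other calcium-handling genes were read from lists of the pathway. Of 14 genes of calcium release and the triad, the junction at which the surface membrane meets the reticulum, 13 were tested and 8 were called lower, with 0 higher and a median log2 fold change of -2.07. Trdn, which anchors calsequestrin at the release channel, fell by 8.47 (FDR = 5.8e-05), although with 3, 8 and 3 expected counts in NF-YA cKO it passed the filter through the NF-YA fl/fl libraries alone and could only be lower. Cacna1s, the voltage sensor, fell by 8.34 (FDR = 7.2e-05). The IP3 receptors Itpr1 (1.07, FDR = 0.0133) and Itpr3 (0.82, FDR = 0.0690), release channels of the general endoplasmic reticulum, were at the other end and were not called.

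Calcium binders of the general endoplasmic reticulum showed no call in either direction among 10 genes, with a median log2 fold change of 0.25. Calr, which encodes calreticulin, was at 597 to 653 CPM in NF-YA cKO and 315 to 547 CPM in NF-YA fl/fl (log2 fold change 0.56, FDR = 0.0612). Rcn3 was at 0.60 (FDR = 0.382), and the lowest of the list were Sdf4 (-0.00, FDR = 0.996) and Rcn1 (0.13, FDR = 0.588). These genes and SERCA2b belong to the reticulum that every cell has.

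Calcium also leaves the cytosol through plasma membrane and Golgi pumps, exchangers and mitochondria. The plasma membrane pumps Atp2b1 (-0.07, FDR = 0.755) and Atp2b4 (0.67, FDR = 0.193) and the Golgi pump Atp2c1 (0.05, FDR = 0.696) were not called, and the other 3 genes of that list were too low to test. Of the sodium-calcium exchangers, Slc8a3, the form of skeletal muscle and brain, fell by 3.07 (FDR = 0.0018), and the mitochondrial exchanger Slc8b1 by 1.27 (FDR = 0.0026). Slc8a1 was at -0.20 (FDR = 0.521) and Slc8a2 was too low to test. In the mitochondrial uptake list, Mcu, the pore of the uniporter, was at -1.0 (FDR = 0.0024), just short of the size required for a call. At the other end of that list were Letm1 (0.34, FDR = 0.0185) and Mcur1 (0.21, FDR = 0.429).

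Of 4 other SERCA-binding micropeptides, 2 were in the tables and 1 was tested. Myoregulin (Mrln), found in skeletal muscle, was at 0, 0.217 and 0.306 CPM in the NF-YA cKO libraries and at 2.60, 2.05 and 2.14 CPM in the controls. The groups did not overlap, and Mrln fell by 3.59 on the log2 scale (FDR = 0.0068). Only 1 NF-YA cKO library was over the minimum count, so Mrln too entered the test through the NF-YA fl/fl libraries. Of the 8 other cytosolic calcium buffers, 5 were tested and 0 called, with S100b (1.32, FDR = 0.0259) highest and Calm3 (0.17, FDR = 0.301) and S100a1 (0.39, FDR = 0.149) lowest.

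Macrophage and Schwann cell markers moved with genotype too. Of 7 macrophage markers tested, 7 were called higher (137 to 271 CPM summed in NF-YA cKO, 5.19 to 11.8 CPM in NF-YA fl/fl), and of 5 Schwann cell markers 4 were higher (32.5 to 35.9 CPM against 8.03 to 11.7 CPM). Of 6 endothelial markers 1 was higher (13.5 to 18.4 CPM against 4.21 to 8.30 CPM), as was 1 of 6 fibro-adipogenic markers (1311 to 1646 CPM against 386 to 1616 CPM) and 1 of 2 tested lymphocyte and platelet markers (2.90 to 6.22 CPM against 1.42 to 2.29 CPM). Of 5 pericyte and smooth muscle markers tested, 1 was lower (879 to 1019 CPM against 1871 to 2243 CPM). It was Acta2, at 635 to 806 CPM against 1389 to 1740 CPM, the largest part of that sum. Rgs5 (-3.37), Pdgfrb (-0.99) and Cspg4 (-0.31) were lower and Myh11 (0.76) higher on the log2 scale, none of them called. The satellite cell and myoblast list had 2 of 7 lower and 0 higher, at 1450 to 1630 CPM against 2223 to 3878 CPM. Its members did not move alike. Des (-2.09, FDR = 0.00022) and Cdh15 (-1.78, FDR = 0.00027) were the genes called lower. Itga7 was also lower in every NF-YA cKO library (-1.25, FDR = 0.0116) but was not called. Pax7, which defines satellite cells, was at 145 to 201 CPM in NF-YA cKO and 73.5 to 105 CPM in the controls (0.94, FDR = 0.0062). Vcam1 was also higher in every NF-YA cKO library (0.86, FDR = 0.0101), and neither of these reached a call. Myf5 (0.80, FDR = 0.272) and Myod1 (-0.08, FDR = 0.908) overlapped between the groups. The choice to name these genes singly was made after their values were seen. The part of these cells in the results above was not tested.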

How the data were processed

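The 6 RNA-seq libraries were grouped by the genotype in the sample labels, 3 per genotype. Per the submitters' processing notes the reads were processed with Bowtie2 and RSEM (mm10). The expected counts were deposited without normalization, and RSEM divides reads shared between transcripts. The deposited TPM are corrected for effective length and add up to an equal total per library. The deposited percent of gene TPM gives each transcript's share. Stranded libraries were made, but strand use in counting is not given in the sources used here. Expected counts were whole in all 6 libraries for 8 of the 10 genes, and Atp2a2 and Casq1 departed from a whole number by at most 0.45.

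After rounding, features over 10 counts in 2 or more libraries were kept. These 17348 of 35976 genes and 45367 of 106521 transcripts were tested with edgeR 4.0.16 in R 4.3.3 (TMM, quasi-likelihood, Benjamini-Hochberg over all tested). The SE (standard error) given with these fits was derived from the test, as the absolute log2 fold change divided by the square root of its F statistic. The study used DESeq2, kept here as an alternative (1.42.0) beside its size factors, filterByExpr, no filter, limma 3.58.1 on log2(TPM + 1) and log2(TPM + 0.1), an FDR under 0.05, a replicate block and leaving out each library. Shares were compared with exact two-sided permutation tests (smallest p 0.1). No pair of replicate libraries agreed within sampling noise. From each pathway list the 2 genes with the highest and the 2 with the lowest log2 fold change were named, except for a few that are not reported here. The genes and lists were chosen with earlier results of these data known. The fit was tested on simulated data. Coordinates and coding ends are from GENCODE M21 (GRCm38). Plots were drawn with matplotlib 3.10.9.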

Additional observations from a re-analysis of the deposited data

How the results depend on the processing

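Atp2a1, Casq1, Casq2, Srl and Hrc were called lower in all 14 gene-level alternatives, Sln in 13 and Pvalb in 7, and Atp2a2, Atp2a3 and Pln in 0. Of the 10 genes, 5 to 7 were called lower over the alternatives and 0 higher. Over all genes, 1331 were called lower and 806 higher, against 704 and 231 with limma on log2(TPM + 1), 1804 and 986 with DESeq2, and 2025 lower at an FDR under 0.05. With limma on log2(TPM + 0.1), 361 were called higher. Leaving out 1 library gave 523 to 1684 lower and 177 to 890 higher. The labels do not say whether the replicate numbers pair the samples, and correlations between so few libraries cannot decide it. Those of same-numbered libraries were 0.21, -0.10 and 0.05, and not every library correlated best with its own number. With the replicate block, 947 genes were called lower and 625 higher, 6 of the 10 genes were called lower, Pvalb was no longer called (-3.19, FDR = 0.0188), and the SERCA2a transcript (-3.92, FDR = 0.0603), the Atp2a1 transcript of 3428 nt (-7.12, FDR = 0.0553) and the Srl transcript of 3718 nt (-6.72, FDR = 0.0512) were not called. The difference in the Sln share of both pump regulators was -69.8 percentage points by TPM and -34.4 by expected counts. Pvalb was also not called with limma on log2(TPM + 1) (-1.29, FDR = 0.0276). Signs turned for Atp2a3 with log2(TPM + 0.1) (0.051), with the block (0.13) and without NF-YA fl/fl replicate 3 (-0.97 to 0.90 over the libraries left out), for Pln without NF-YA fl/fl replicate 2 (-0.42 to 0.15), and for the ratios relative to muscle markers without Ttn of Atp2a1 (0.17 on the log2 scale) and Sln (0.48). The Srl transcript of 3823 nt turned to -0.07 without NF-YA cKO replicate 3 and to -0.29 without NF-YA fl/fl replicate 1 (-0.29 to 0.49 over the libraries left out). The causes were not tested. Depth limited Sln and Pvalb, with at most 6 counts per NF-YA cKO library. Hrc (5, 12 and 18) and Casq1 (9, 19 and 28) also had few counts in NF-YA cKO. Their ratios of summed counts were 261 (95% exact interval 188 to 375) and 291 (224 to 386), intervals that cover counting error only.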

Other observations

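The transcripts of Srl were not alike. Among those singled out after their values were seen, the transcript of 3718 nt was at 1.24, 1.32 and 1.52 TPM in NF-YA cKO and at 184.67, 163.63 and 122.20 TPM in NF-YA fl/fl and fell by 6.72 on the log2 scale (SE 0.21, FDR = 0.0011, edgeR over all transcripts). The call was lost without NF-YA cKO replicate 2 (FDR = 0.0170) or 3 (FDR = 0.0124) and with the replicate block (FDR = 0.0512). The transcript of 3823 nt was at 3.02, 2.61 and 3.94 TPM in NF-YA cKO and at 1.35, 5.86 and 2.94 TPM in NF-YA fl/fl. Its groups overlapped (log2 fold change 0.08, SE 0.46, FDR = 0.955). It made up 60.4% of the Srl TPM in NF-YA cKO and 1.73% in NF-YA fl/fl on average, so most of the Srl that remained in NF-YA cKO was assigned to it.

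The genes with the profile most like each pump over the 6 libraries, by Euclidean distance of centred log2(CPM + 0.5) values, were Col25a1 (0.345), Hrc (0.372) and Myom2 (0.526) for Atp2a1. For Atp2a2 they were Gpatch2l (0.0656), Dcaf11 (0.0767) and Rab12 (0.0869), with log2 fold changes of -0.43, -0.41 and -0.42. For Atp2a3 the nearest were Snora73b (0.686), Extl1 (0.793) and Adm2 (0.837), and these distances were the longest of the 3 pumps.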
